A study of Mus musculus with 12 samples.

Results

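Cultures of primary hepatocytes carry along RNA of other liver cells, and 34 genes that mark hepatic stellate cells, fibroblasts and endothelial cells were followed here across treatment and genotype. They comprised 20 mesenchymal genes and 14 endothelial genes, chosen by name from a list and not by their values. Each was represented by its brightest probe set, the one with the highest mean log2 signal over all arrays among probe sets annotated to that symbol alone. All 34 were measured, among 18193 genes in all.

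The study hybridised total RNA of mouse liver cells to 12 Affymetrix expression arrays, 3 in each of 4 groups, with 1 array per mouse per the design text. Wild type cells came from C57BL6/J mice, whose Ahr genotype the design text gives as Ahrb/b. Human AHR cells came from B6.Cg-Ahrtm3.1Bra mice with the transgenes Tg (Alb-cre, Ttr-AHR)1Ghp, a line that carries a floxed mouse Ahr allele, a Cre recombinase under the albumin promoter and the human aryl hydrocarbon receptor (AHR) under the transthyretin promoter. Both promoters are active in hepatocytes, so the strain name places Cre and the human AHR there and names no driver for other liver cells. Which AHR the stellate or endothelial cells of these mice hold was not measured here. All cells were labelled as hepatocytes, were kept for 48 h in Hepatozyme-SFM medium with dimethyl sulfoxide, dexamethasone and antibiotics, and then received vehicle (dimethyl sulfoxide) or the AHR ligand TCDD at 10 nM for 6 h. The groups are called wild type vehicle, wild type TCDD, human AHR vehicle and human AHR TCDD.

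As background, stellate cells lie between hepatocytes and the sinusoidal endothelium, store vitamin A and, once activated, take on a myofibroblast state in which they make contractile proteins and fibrous collagens. Sinusoidal endothelial cells line the liver's capillaries and clear particles from blood through scavenger receptors. Both kinds of cell are largely removed when hepatocytes are purified, and stellate cells that remain tend to activate on plastic. AHR is a ligand-dependent transcription factor that binds DNA with its partner ARNT.

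Signals are the deposited linear intensities with every array rescaled to the same trimmed mean (150), in arbitrary units. The 3 wild type TCDD arrays were deposited at a trimmed mean of 500 and the other 9 at 150. In comparisons with that group, treatment or genotype cannot be told apart from any difference in processing. Changes were tested as log2 of the signal plus 16 with limma over all genes and are given with 95% confidence intervals, and a gene was called at a Benjamini-Hochberg adjusted p under 0.05. The added 16 makes the log2 change of a dim gene smaller than that of its signal. Arrays give no counts, so 3 arrays per group set the precision, and the p-values measure the spread between these arrays. The median half-width of the interval was 0.59 for the 34 genes and 0.47 for all genes in a comparison of a pair of groups.

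Depth and identity of the arrays were checked first. The median signal over all probe sets lay between 16.5 and 23.5, highest in human AHR vehicle replicate 3. The 10 hepatocyte markers tested summed to between 63520 and 86180 in the 12 arrays. Tiparp, an AHR target, had mean signals of 1137 under vehicle and 2811 under TCDD in wild type cells (limma adjusted p = 0.0192), and 1357 and 3542 in human AHR cells (limma adjusted p = 0.00537). Cyp1a1, another of the 4 AHR targets checked, read 125, 2518 and 64.9 in wild type TCDD arrays (limma adjusted p = 0.966). It read 6624, 4004 and 6939 in human AHR TCDD arrays (limma adjusted p = 0.0424). Cyp1a2 had log2 changes of 0.87 with TCDD in wild type and 0.11 in human AHR cells, neither called. Under vehicle Cyp1a2 was already higher in human AHR cells, by 2.325 (limma adjusted p = 0.0169). Cyp1b1 was called in neither genotype. Both wild type replicate 2 arrays had a female pattern, with Xist at 3085 and 2952 against 11.7 to 29.3 in the other 10 arrays.

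Most of the 34 genes gave weak signals in every group. The mean signal over the 12 arrays was under 50 for 17 of 20 mesenchymal and 13 of 14 endothelial genes, together 88.2% of the genes followed here and 52.0% of all genes. The 4 genes at 50 or more were Vim, Timp1, Reln and Eng. Of the 34, 23 stayed under 50 on all 12 arrays, and 9 were at or below the array's own median on all 12. These 9 were Lrat, Col1a1, Col3a1, Col5a2, Lum, Pdgfrb and Thy1 among the mesenchymal genes and Tie1 and Vwf among the endothelial genes. No gene was listed at 0 on any array. In these bulk samples, fewer cells of a type and less RNA per cell cannot be told apart.

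**Figure D1:**
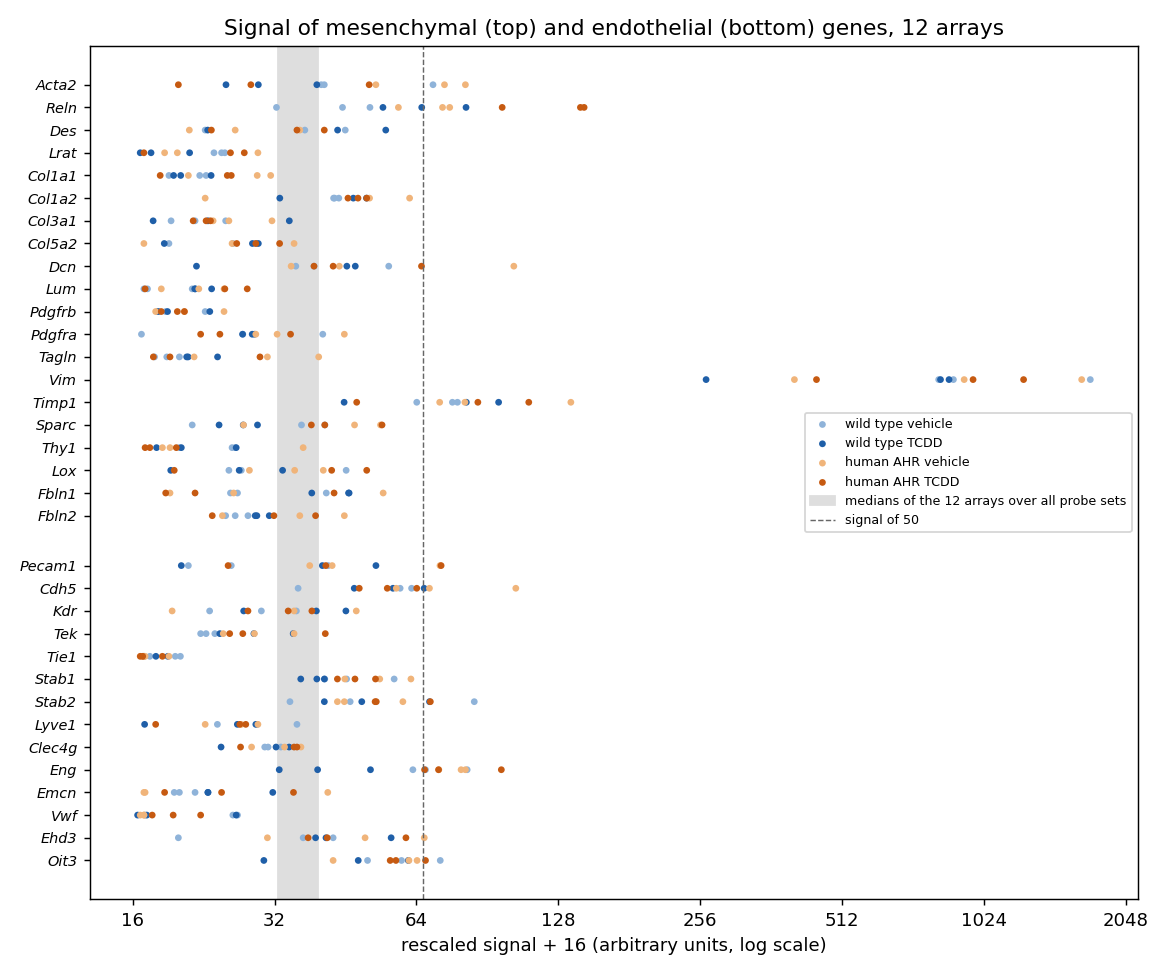
Rescaled signal plus 16 (log scale, arbitrary units) of the 20 mesenchymal and 14 endothelial genes, 1 point per array coloured by group. The grey band spans the medians of the 12 arrays, 16.5 to 23.5 before the 16 is added, and the dashed line marks a signal of 50. Vim lies far to the right of the line in all 12 arrays, while 9 genes stay at or below the array medians throughout.

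Among the genes that define hepatic stellate cells, Reln was the only member of all 34 to lie higher in every TCDD array than in every vehicle array of both genotypes. Reln encodes reelin, a large secreted matrix glycoprotein that stellate cells make in the liver. The sequence around its start site is shown because Reln was separated in both TCDD comparisons and because this stretch holds the AHR core motif. Both stretches come from RefSeq, build GRCm38.p6, on the minus strand, and are written 5′ to 3′ with capitals marking GCGTG in the first and TNGCGTG in the second. The first ends at the last base before the start site and covers chr5:22344706-22344955, and the second lies just after the start and covers chr5:22344667-22344695.
Reln upstream: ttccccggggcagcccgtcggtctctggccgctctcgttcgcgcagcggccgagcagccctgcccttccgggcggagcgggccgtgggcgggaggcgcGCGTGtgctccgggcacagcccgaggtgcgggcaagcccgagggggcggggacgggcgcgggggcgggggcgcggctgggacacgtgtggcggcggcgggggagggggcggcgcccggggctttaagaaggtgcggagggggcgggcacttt
Reln site: gccgaggggcgTCGCGTGcacaccggcgg
In windows from 250 bases before to 50 after a start site, searched on both strands, GCGTG was present in 32.4% of 32851 windows and TNGCGTG, which contains it, in 5.07%. Of the 34 genes, 21 had a window, 6 of these held GCGTG (Reln, Lrat, Timp1, Fbln1, Kdr and Emcn), and Reln alone held TNGCGTG, with its first base at 22 after the start. Such a match describes letters and not binding.

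The signal of Reln was 35.0, 16.3 and 28.6 in the wild type vehicle arrays and 38.3, 65.5 and 49.7 in the wild type TCDD arrays. In human AHR cells it was 42.6, 56.7 and 59.3 under vehicle and 127, 81.3 and 129 under TCDD. Each TCDD array exceeded each vehicle array of the same genotype, and the human AHR arrays lay above the wild type arrays under either treatment. The group means were 26.6 ± 9.50, 51.2 ± 13.7, 52.9 ± 8.99 and 112 ± 26.9 (SD, n = 3 each) in the order just given. The log2 change with TCDD was 0.66 (0.12 to 1.21) in wild type cells and 0.88 (0.34 to 1.43) in human AHR cells, and neither passed the test (limma adjusted p = 0.966 and 1.0). The human AHR cells exceeded wild type by 0.71 (0.17 to 1.25) under vehicle and by 0.93 (0.39 to 1.47) under TCDD, again without passing (limma adjusted p = 0.965 and 0.922). The pair of TCDD effects differed by 0.22 (-0.55 to 0.99). These comparisons share samples: each of the 4 groups serves both a TCDD and a genotype comparison. Across all genes, only B3galnt2, Cyp1a1, Dppa5a and Reln (4 of 18193, or 0.022%) were separated upward in all 4 of these comparisons, and 43 genes (0.236%) were separated upward by TCDD in both genotypes. With quantile normalization the Reln groups overlapped in the wild type TCDD comparison. The second Reln probe set had a mean signal of 10.2 and log2 changes of 0.48 and -0.10 with TCDD in wild type and human AHR cells. It gave 0.34 and -0.24 between genotypes under vehicle and TCDD, so it did not follow the brighter one in the comparisons of human AHR TCDD. Without both wild type replicate 2 arrays the wild type change was 0.33, against 0.66 with them.

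The other stellate-defining genes were dim. Lrat, which esterifies retinol for storage, ranged from 0.60 to 13.5 over the 12 arrays with a median of 6.46. Its wild type vehicle arrays were at 7.8, 9.1 and 8.7 and its wild type TCDD arrays at 0.60, 5.13 and 1.5, without overlap, for a log2 change of -0.42 (limma adjusted p = 0.966). Des, the intermediate filament desmin, ranged from 5.1 to 39.1 with a median of 19.9, and its groups overlapped in every comparison. Pdgfrb, the receptor for platelet-derived growth factor B, ranged from 1.9 to 9.0 and was at or below the array median throughout. The summed signal of Reln, Lrat, Des and Pdgfrb was 35.0 to 73.3 in wild type vehicle, 49.0 to 100.3 in wild type TCDD, 67.4 to 84.3 in human AHR vehicle and 104.3 to 168.4 in human AHR TCDD. Without Reln the other 3 summed to 18.7 to 44.7, 10.7 to 47.9, 18.9 to 27.6 and 23.0 to 39.2 in the same order and overlapped, so the higher human AHR TCDD sums were those of Reln.

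Acta2, the smooth muscle actin of activated stellate cells and myofibroblasts, had the opposite order. Its signal was 53.4, 24.8 and 24.2 in wild type vehicle arrays and 23.3, 13.6 and 9.24 in wild type TCDD arrays. In human AHR cells it was 36.5, 57.4 and 65.3 under vehicle and 4.0, 34.8 and 12.5 under TCDD. Every TCDD array lay below every vehicle array of its genotype, by less than 2 units between the nearest arrays in either case. The means were 34.1 ± 16.7 and 15.4 ± 7.22 in wild type cells and 53.1 ± 14.9 and 17.1 ± 15.9 in human AHR cells (SD, n = 3 each). The log2 change was -0.65 (-1.39 to 0.09) in wild type and -1.15 (-1.89 to -0.40) in human AHR cells, with limma adjusted p = 0.966 and 1.0, and the effects differed by -0.49 (-1.54 to 0.56). Without wild type vehicle replicate 1, its highest array there, the wild type change was -0.39. Separation downward in both genotypes was found for 19 of 18193 genes (0.104%). The genotypes differed by 0.49 under vehicle and -0.01 under TCDD, and their arrays overlapped. The remaining Acta2 probe sets had mean signals of 5.41 and 1.74, and their changes were -0.18 and -0.03 in wild type and -0.13 and 0.14 in human AHR cells. Averaged over its probe sets, the human AHR change of Acta2 was -0.38.

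**Figure D2:**
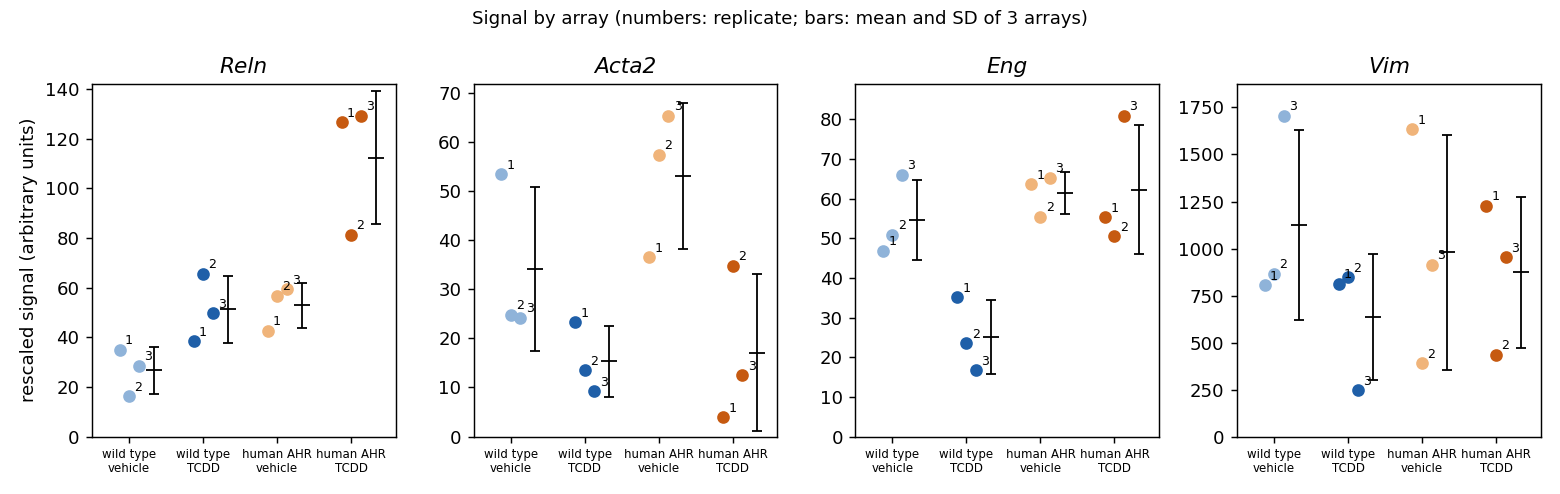
Rescaled signal (arbitrary units, linear axis from 0) of Reln, Acta2, Eng and Vim by group; numbers are the replicates, and bars are the mean and SD of 3 arrays. Reln is higher and Acta2 lower in each TCDD group than in its vehicle group, Eng is low in wild type TCDD alone, and Vim spreads widely within every group.

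Other contractile and cytoskeletal genes did not share one pattern. Tagln, the actin-binding protein transgelin, had 1.8, 4.1 and 2.9 in wild type vehicle arrays and 4.98, 8.22 and 4.83 in wild type TCDD arrays. Its human AHR arrays were at 14.9, 23.7 and 5.6 under vehicle and 1.7, 13.8 and 3.2 under TCDD. The human AHR vehicle arrays lay above the wild type vehicle arrays without overlap, at a log2 difference of 0.66 (0.15 to 1.16, limma adjusted p = 0.965). The log2 change with TCDD was 0.22 in wild type and -0.46 in human AHR cells, neither past the test, and in wild type its sign was opposite to that of Acta2. Tagln has 1 probe set here and was at or below the array median on 11 of the 12 arrays.

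Vim, the intermediate filament vimentin of mesenchymal cells, was the brightly measured exception. Its signal was 805, 866 and 1706 in wild type vehicle and 812, 848 and 247 in wild type TCDD arrays. In human AHR cells it was 1635, 390 and 914 under vehicle and 1227, 436 and 955 under TCDD. The lowest array was wild type TCDD replicate 3 and the highest wild type vehicle replicate 3, in each of its 3 probe sets. The log2 change was -0.91 (-2.10 to 0.28) in wild type and -0.06 (-1.25 to 1.13) in human AHR cells, within a spread of 0.85 (SD, log2) inside groups. Without wild type TCDD replicate 3 the wild type change was -0.35, and without wild type vehicle replicate 3 it was -0.57. The summed signal of 4 cholangiocyte markers, genes of bile duct cells, was 1371, 533 and 1019 in human AHR vehicle and 1144, 533 and 923 in human AHR TCDD. In wild type cells it was 803, 930 and 764 under vehicle and 693, 602 and 639 under TCDD. The sums ranked the replicates as Vim did in human AHR cells but not in wild type cells. In wild type cells the array with the highest Vim of each group had the lowest sum. Krt19 made up most of these sums, with a mean signal of 633 against 99.1 for Sox9, 89.4 for Epcam and 8.13 for Krt7. In human AHR TCDD arrays Epcam and Sox9 were highest in replicate 2, where Vim was lowest. Krt7 was highest in replicate 1, as Vim was. The part of bile duct cells in the Vim values was not tested.

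The collagen genes stayed low in all groups. Col1a2, a chain of type I collagen, was at 27.8, 26.9 and 26.7 in wild type vehicle and 34.1, 16.8 and 31.0 in wild type TCDD arrays. The human AHR arrays read 6.8, 45.9 and 34.9 under vehicle and 29.8, 32.1 and 34.2 under TCDD. Human AHR vehicle replicate 1 stood low, and all groups overlapped, with changes of -0.02 (limma adjusted p = 0.997) and 0.21 (1.0). Col1a1, the other chain of type I collagen, ranged from 2.3 to 15.4 over the 12 arrays. Col3a1, of type III collagen, ranged from 1.68 to 18.4, and its human AHR TCDD arrays (7.4, 6.9 and 5.5) lay just below its vehicle arrays (7.7, 9.6 and 15.6). Col5a2, of type V collagen, ranged from 0.90 to 19.2. Col1a1, Col3a1 and Col5a2 were all at or below the array median on 12 of 12 arrays, so their order between groups rests on signals that did not exceed those of the typical probe set.

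Genes of other matrix proteins were likewise without a call. Dcn, the proteoglycan decorin, was at 19.5, 22.8 and 39.9 in wild type vehicle and 29.5, 31.5 and 5.85 in wild type TCDD arrays. It was at 18.7, 27.9 and 87.0 in human AHR vehicle and 22.8, 26.6 and 49.6 in human AHR TCDD arrays. The groups overlapped, with wild type TCDD replicate 3 lowest and human AHR vehicle replicate 3 highest. Sparc, a collagen-binding matrix protein, was at 5.4, 24.9 and 20.5 in wild type vehicle and 13.4, 11.5 and 8.4 in wild type TCDD arrays. It was at 31.3, 11.5 and 37.7 in human AHR vehicle and 24.9, 22.3 and 38.1 in human AHR TCDD arrays. Under TCDD the human AHR arrays lay above the wild type arrays by 0.70 (0.06 to 1.34, limma adjusted p = 1.0), while the other Sparc probe sets gave 0.00 and 0.50. Timp1, a secreted inhibitor of matrix metalloproteinases, was at 62.2, 60.3 and 48.1 in wild type vehicle and 79.6, 65.7 and 28.9 in wild type TCDD arrays. Its human AHR values were 55.7, 65.1 and 120.1 under vehicle and 70.4, 31.8 and 94.8 under TCDD. Its groups overlapped in all 4 comparisons of groups, with changes of -0.04 and -0.26 with TCDD in wild type and human AHR cells.

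The remaining mesenchymal genes were dim and are given by range. Lum, the proteoglycan lumican, ran from 0.90 to 12.0, and Thy1, a surface protein of portal fibroblasts, from 1.0 to 20.8. Pdgfra, the alpha receptor for platelet-derived growth factor, ran from 0.70 to 29.0, and Lox, which cross-links collagen, from 3.27 to 34.2. Fbln1 and Fbln2, the basement membrane proteins fibulin 1 and 2, ran from 2.8 to 38.4 and from 7.6 to 29.0. Among these 6, groups were separated only for Lum and Fbln2, both higher in wild type TCDD than in wild type vehicle. Lum read 0.90, 5.4 and 1.2 under vehicle and 7.53, 5.67 and 5.73 under TCDD, and the nearest arrays differed by under 1 unit for Lum and by about 1 unit for Fbln2.

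Among the endothelial genes, Eng had the largest log2 change with TCDD in wild type cells and a change near 0 in human AHR cells. Eng encodes endoglin, a co-receptor for transforming growth factor beta family ligands on endothelial cells, also made by activated stellate cells. Its signal was 46.9, 50.9 and 66.0 in wild type vehicle and 35.1, 23.5 and 16.7 in wild type TCDD arrays. It was 63.6, 55.4 and 65.3 in human AHR vehicle and 55.3, 50.6 and 80.9 in human AHR TCDD arrays. The 3 wild type TCDD arrays lay below all other 9 arrays. They are also the 3 arrays deposited at another scale, so treatment and any difference in processing cannot be told apart here. Means were 54.6 ± 10.1, 25.1 ± 9.30, 61.4 ± 5.29 and 62.3 ± 16.3 (SD, n = 3 each) in that order. The log2 change was -0.80 (-1.29 to -0.30) in wild type and 0.00 (-0.50 to 0.50) in human AHR cells, with limma adjusted p = 0.966 and 1.0. The difference of the effects was 0.79 (0.09 to 1.5, limma adjusted p = 0.998), and the human AHR cells exceeded wild type under TCDD by 0.93 (0.43 to 1.43, limma adjusted p = 0.735). The second Eng probe set, with a mean signal of 13.3, gave -0.27 in wild type and 0.05 in human AHR cells.

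Receptors and junction genes of the sinusoid had a mean signal under 50, and none passed the test. Stab2, the hyaluronan scavenger receptor stabilin 2, was at 18.5, 68.9 and 30.3 in wild type vehicle and 33, 52.2 and 24.8 in wild type TCDD arrays. It was at 43.9, 27.5 and 29.0 in human AHR vehicle and 52.5, 36.6 and 36.3 in human AHR TCDD arrays. The groups overlapped, and both wild type replicate 2 arrays were the highest of their groups. Oit3, which marks sinusoidal endothelium in the liver, was at 55.9, 34.4 and 43.5 in wild type vehicle and 45.5, 14.4 and 32.2 in wild type TCDD arrays. It was at 45.7, 26.6 and 48.2 in human AHR vehicle and 50.9, 41.9 and 40.3 in human AHR TCDD arrays, for changes of -0.42 and 0.12, with overlap. Under TCDD the Oit3 difference between genotypes was 0.43, which had the sign seen for Eng, as did its wild type change. Under vehicle the genotype difference was -0.12 for Oit3 and 0.14 for Eng. With TCDD in human AHR cells Eng was near 0. Cdh5, the cadherin of endothelial junctions, was at 43.1, 19.9 and 46.5 in wild type vehicle and 50.5, 41.1 and 31.2 in wild type TCDD arrays. It was at 42.0, 52.2 and 88.0 in human AHR vehicle and 39.5, 32.4 and 48.1 in human AHR TCDD arrays. The highest Cdh5 signal was human AHR vehicle replicate 3, the array with the highest median, and TCDD gave 0.14 and -0.42 with overlap in each genotype.

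The other 10 endothelial genes are given by range over the 12 arrays. Stab1, a scavenger receptor related to Stab2, ran from 20.4 to 46.3. Its wild type TCDD arrays (20.4, 23.3 and 24.8) lay below its wild type vehicle arrays (29.5, 24.9 and 41.4) with 0.1 between the nearest pair, and below its human AHR TCDD arrays (27.5, 31.4 and 36.4). Lyve1, a hyaluronan receptor, ran from 0.96 to 19.7, and Clec4g, a lectin of the sinusoid, from 8.64 to 20.4. Pecam1, an adhesion protein of endothelial junctions, ran from 4.29 to 56.2, and Ehd3, an endosomal protein, from 4.0 to 50.5. The growth factor receptors were Kdr, for vascular endothelial growth factor, from 3.4 to 31.7, and Tek, for angiopoietins, from 6.3 to 25.0. Tek was separated upward by TCDD in wild type cells and by genotype under vehicle, at 0.34 and 0.35, and was at or below the array median on 11 arrays. Tie1, an orphan receptor related to Tek, ran from 0.60 to 4.2, and Vwf, the clotting factor carrier, from 0.39 to 10.7. Emcn, the sialomucin endomucin, ran from 0.90 to 25.5. The summed signal of Stab2, Lyve1, Clec4g and Oit3 was 97.6 to 133.7 in wild type vehicle, 76.2 to 105.4 in wild type TCDD, 78.5 to 115.7 in human AHR vehicle and 99.5 to 133.6 in human AHR TCDD, overlapping between wild type vehicle and each other group. All 4 of these genes had a difference of the TCDD effects above 0 (0.05 to 0.54), none past the test. Of all 14 endothelial genes 8 lay above 0 and 6 below, with Cdh5 at -0.56, Ehd3 at -0.55 and Pecam1 at -0.51. Over all 18193 genes 8023 lay above 0 and 10170 below.

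Set side by side, TCDD called none of the 34 genes in either genotype. In wild type cells limma called 0 of 34 (0.0055% of all genes called), 2 had an unadjusted p under 0.05 (Eng and Reln, against 4.18% of all genes), and the smallest adjusted p was 0.966. In human AHR cells it called 0 of 34 (0.022% of all genes called), 2 had an unadjusted p under 0.05 (Reln and Acta2, against 2.90% of all genes), and the smallest adjusted p was 1.0. The difference of the TCDD effects called 0 of 34 (0% of all genes), with 1 unadjusted p under 0.05, that of Eng, against 3.14% of all genes. Median log2 changes of the mesenchymal genes were 0.00 in wild type and -0.12 in human AHR cells, and those of the endothelial genes -0.03 and -0.01, beside 0.03 and -0.01 over all genes. The mesenchymal genes split into 10 above and 10 below 0 in wild type and 8 above and 12 below in human AHR cells. The endothelial genes split into 7 and 7, and into 6 and 8. Neither set of genes leaned one way with TCDD in both genotypes. Without human AHR vehicle replicate 3 the mesenchymal median in human AHR cells was 0.01 in place of -0.12.

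The arrays of a pair of groups did not overlap for 10 of 34 genes with TCDD in wild type cells (8.99% of all genes) and for 4 of 34 in human AHR cells (7.21% of all genes). In wild type cells TCDD arrays lay above all vehicle arrays for 6 of 34 (6.17% of all genes; Reln, Lum, Tagln, Fbln2, Tek and Emcn) and below for 4 of 34 (2.82%; Acta2, Lrat, Stab1 and Eng). With all arrays shifted to a shared median these became 1 above (Reln) and 5 below (Acta2, Lrat, Vim, Stab1 and Eng), and with quantile normalization 0 above and 4 below. Over all genes the upward share of separated genes in wild type cells moved likewise, from 68.6% to 20% with the shared median. In human AHR cells 2 of 34 lay above (3.34% of all genes; Reln and Vwf) and 2 below (3.86%; Acta2 and Col3a1), and the shared median kept Reln, Acta2 and Col3a1. The shared median moved the median change of all genes from 0.03 to -0.09 in wild type cells and that of the difference from -0.04 to 0.10. Of the 21 genes with more than 1 probe set, the next-brightest probe set had the same sign of change in 13 in wild type and in 8 in human AHR cells.

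**Figure D3:**
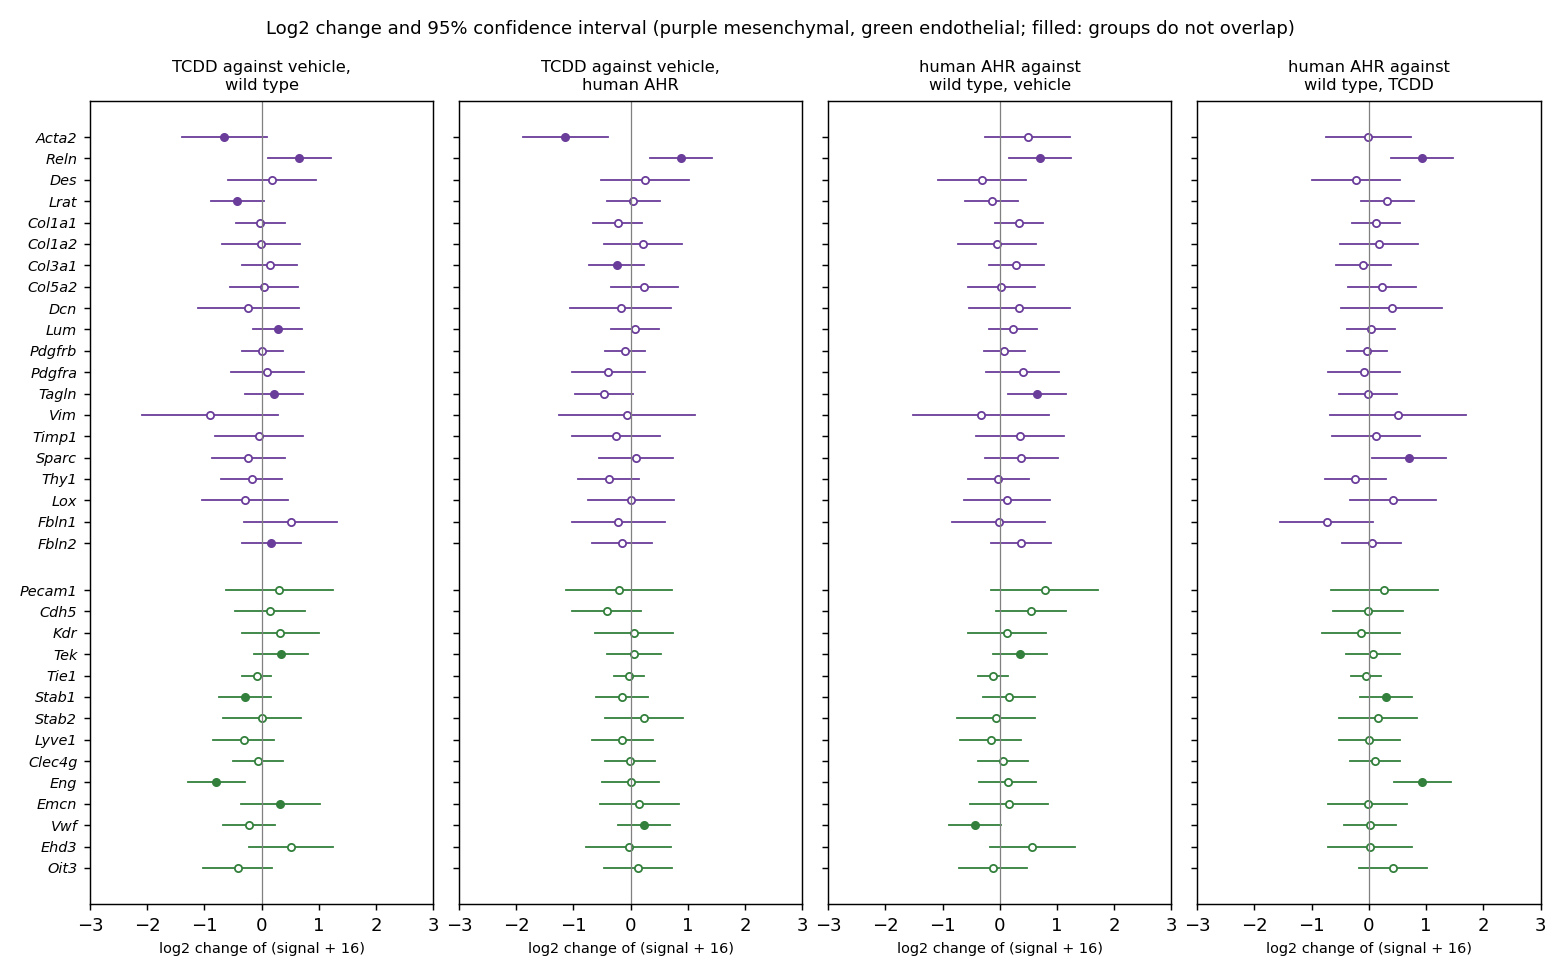
Log2 change of signal plus 16 (points) with 95% confidence interval (bars) for each gene in the TCDD comparison of each genotype and the genotype comparison under each treatment. Purple marks mesenchymal and green endothelial genes, and filled points mark groups of arrays that do not overlap. Most intervals cross 0 in every panel; Reln lies right of 0 in all 4, Acta2 left of 0 in both TCDD panels, and Eng left of 0 in wild type TCDD and right of 0 between genotypes under TCDD.

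Between genotypes, human AHR cells leaned higher under vehicle without a call. Limma called 0 of 34 there (0.0055% of all genes called), 2 had an unadjusted p under 0.05 (Reln and Tagln, against 4.23% of all genes), and the smallest adjusted p was 0.965. The median difference was 0.26 for the mesenchymal genes (14 above 0, 6 below) and 0.14 for the endothelial genes (9 above, 5 below), beside 0.03 over all genes. Groups did not overlap for 4 of 34 (10.6% of all genes), upward for 3 (6.22% of all genes; Reln, Tagln and Tek) and downward for Vwf (4.40%). With the shared median 2 remained upward (Reln and Tek) and 0 downward, and with quantile normalization the same 2 upward and Vwf downward. Over all genes the upward share of separated genes under vehicle was 58.6%, and 39.1% with the shared median. Under TCDD limma also called 0 of 34 (0% of all genes), with 3 unadjusted p-values under 0.05 (Eng, Reln and Sparc, against 4.11% of all genes). The medians were then 0.09 and 0.05, beside -0.01 over all genes. Under TCDD 4 of 34 were separated (8.1% of all genes), all 4 upward (3.23% of all genes; Reln, Sparc, Stab1 and Eng) and 0 downward (4.86%), and the same 4 remained with the shared median and with quantile normalization. Over all genes the upward share of separated genes under TCDD was 39.9%, but 73.7% with the shared median.

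Human AHR vehicle replicate 3 weighed on the vehicle comparison. It was the highest of the 12 arrays for 13 of the 34 genes (38.2%), against 11.8% of all genes. With a shared median it was highest for 7 of 34 (20.6%), against 5.3% of all genes. It was not alone: human AHR vehicle replicate 2 was highest for 6 of 34 (17.6%, against 7.8% of all genes). With the shared median replicate 2 was highest for 7 (20.6%, against 7.6%). Human AHR TCDD replicate 3 was highest for 6 of 34 with either scaling (17.6%, against 6.8% and 6.9%). The summed signal of the 19 mesenchymal genes other than Vim was 603 in human AHR vehicle replicate 3 and between 264 and 480 in the other 11 arrays. The endothelial sum was 493 in it and 251 to 437 in the other 11. Without this array the genotype medians under vehicle were 0.10 for the mesenchymal and -0.02 for the endothelial genes, in place of 0.26 and 0.14. Of the 12 arrays, wild type TCDD replicate 3 held the lowest mesenchymal sum without Vim and wild type TCDD replicate 2 the lowest endothelial sum.

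**Figure D4:**
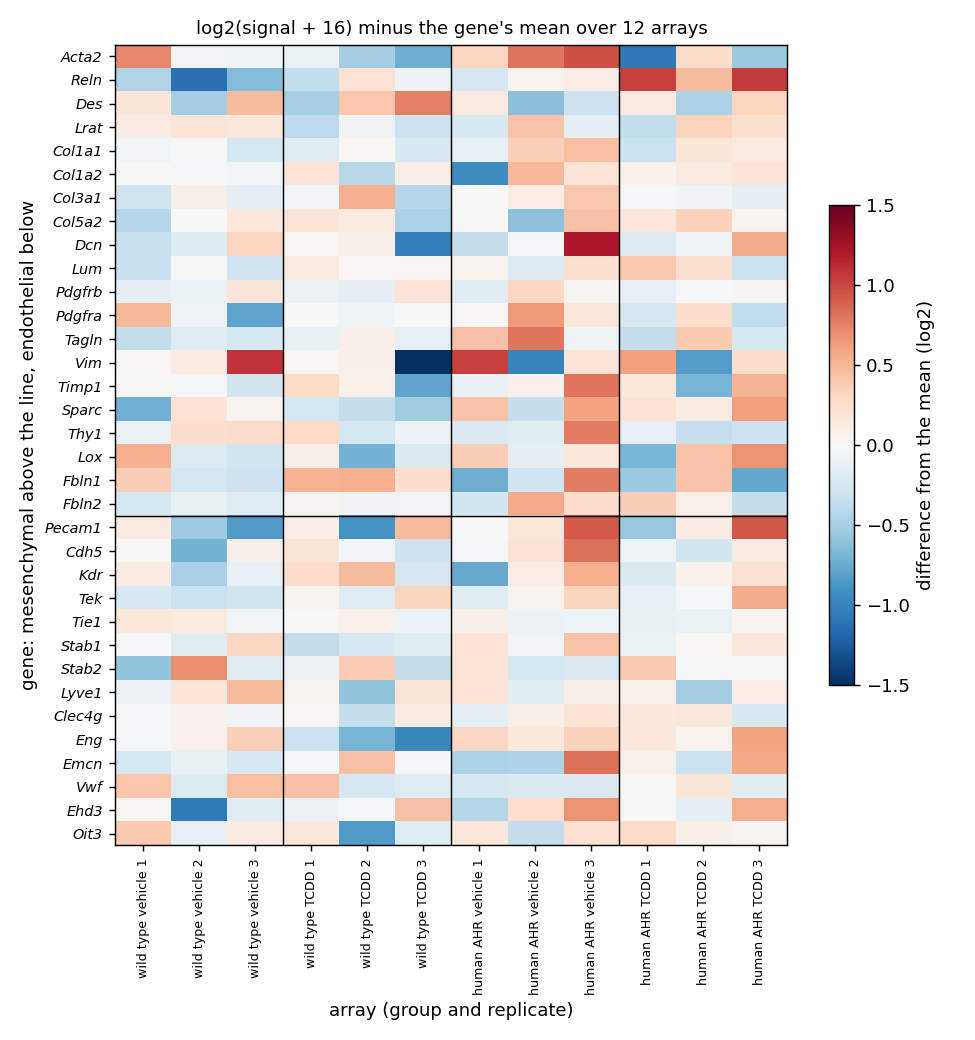
Difference of each gene's log2(signal plus 16) from its own mean over 12 arrays, with mesenchymal genes above the line and endothelial genes below, and arrays as columns by group and replicate. The column of human AHR vehicle replicate 3 is mostly red in both blocks, while the treatment groups show no common colour across genes.

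Macrophage markers differed in level between the genotypes, though none was called. Under vehicle 11 of 12 Kupffer cell and macrophage genes were higher in human AHR cells, against 10025 of all 18193 genes. Their median log2 difference was 1.47 beside 0.03 over all genes, and 8 had an unadjusted p under 0.05 (4.23% of all genes). Limma called 0 of them (0.0055% of all genes). Under TCDD 11 of these 12 were higher, against 8658 of all genes, with a median of 1.21 beside -0.01. Among them 6 had an unadjusted p under 0.05 (4.11% of all genes), and 0 were called (0%). Their TCDD medians were -0.03 in wild type and -0.07 in human AHR cells. Cd68 made up most of the summed signal of these genes. Without it the other 11 summed to 105, 119 and 300.2 in wild type vehicle and 138, 164 and 154 in wild type TCDD arrays. In human AHR cells they summed to 202, 961 and 1415 under vehicle and 228, 818 and 1348 under TCDD. The higher level thus lay mostly in human AHR replicates 2 and 3. Both replicate 1 arrays were within the wild type range, but only because of wild type vehicle replicate 3 at 300.2. Human AHR TCDD replicate 1, at 228, lay above all wild type TCDD arrays. Human AHR arrays lay above all wild type arrays for 7 of the 12 genes under TCDD (3.23% of all genes). Under vehicle they did so for 2 (6.22% of all genes). C1qa, a complement component made by macrophages, read 4.2, 183 and 312 in human AHR vehicle and 10.8, 170 and 281 in human AHR TCDD arrays. The highest sum of all 12 arrays was that of human AHR vehicle replicate 3, which was also the highest array for 13 of the 34 genes. None was listed at 0, and Timd4, a defining marker of resident Kupffer cells, had group means of 1.03 to 3.90. The part of these other cells in the genotype differences of the stellate and endothelial genes was not tested.

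Genes that act with the 34 in matrix signalling gave no calls either. Of 42 related mesenchymal genes 39 were measured, and limma called 0 in all 5 comparisons. An unadjusted p under 0.05 was found for 2, 0, 2, 0 and 1 of them, against 4.18%, 2.9%, 3.14%, 4.23% and 4.11% of all genes. That order is wild type TCDD, human AHR TCDD, difference, vehicle genotype and TCDD genotype. Over all 18193 genes limma called 1, 4, 0, 1 and 0 in the same order. Medians of the 39 genes were -0.05, -0.05, -0.01, -0.01 and 0.01 in that order. Ccn1, a secreted matricellular protein, read 3329, 2944 and 5991 in wild type vehicle and 3237, 2380 and 1220 in wild type TCDD arrays, a change of -0.88 (-1.73 to -0.03, limma adjusted p = 0.966) with overlap. Ccn2, a matricellular protein tied to fibrosis, had its lowest signal, 135, in wild type TCDD replicate 3, where Vim was lowest too, and a log2 change of -1.30 (-2.88 to 0.28) that did not pass. Col5a1, the partner chain of Col5a2, had 18.4, 22.5 and 18.5 in wild type vehicle and 39.1, 38.5 and 31.1 in wild type TCDD arrays, separated upward. Its human AHR arrays ran the other way in mean, from 46.1 ± 25.1 under vehicle to 22.1 ± 21.3 under TCDD, and the effects differed by -1.29 (-2.39 to -0.20, limma adjusted p = 0.998). Col6a2 and Col6a3 had the same signs, with uncalled differences of -1.02 and -0.705. Over the 39 genes this difference was above 0 for 19 and below for 20. In wild type cells TCDD separated 5 of 39 upward (6.17% of all genes; Tgfb3, Pdgfb, Col5a1, Col6a2 and Col6a3) and 0 downward (2.82%). In human AHR cells it separated 0 upward (3.34% of all genes) and 0 downward (3.86%).

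All 33 related endothelial genes were measured, and limma called 0 in the same 5 comparisons, with 4, 2, 2, 1 and 1 at an unadjusted p under 0.05. These were 12.1%, 6.06%, 6.06%, 3.03% and 3.03% of the 33, against 4.18%, 2.9%, 3.14%, 4.23% and 4.11% of all genes. Medians of the 33 genes were -0.02, 0.02, 0.05, 0.15 and 0.11. Sox17, a transcription factor of endothelium, read 2.2, 3.4 and 5.6 in wild type vehicle and 17.2, 15.4 and 21.6 in wild type TCDD arrays. It read 11.4, 14.4 and 37.9 in human AHR vehicle and 11.3, 14.8 and 15.7 in human AHR TCDD arrays. The wild type vehicle arrays thus lay below all others, with a wild type change of 0.79 (0.28 to 1.29) and a difference of effects of -1.04 (-1.75 to -0.32), neither past the test (limma adjusted p = 0.966 and 0.998). Sox17 was dim, with a mean signal of 14.2, and was at or below the array median on 11 of the 12 arrays. Vegfa, the ligand of Kdr, is also made by hepatocytes. It read 370, 359 and 424 in human AHR vehicle and 257, 246 and 249 in human AHR TCDD arrays, without overlap, a change of -0.58 (-1.04 to -0.12, limma adjusted p = 1.0). In wild type cells Vegfa read 218, 411 and 247 under vehicle and 177, 189 and 274 under TCDD, with overlap and a change of -0.40.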

How the data were processed

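RNA of primary hepatocytes was measured on 12 arrays with 45101 probe sets. Per the design text and the submitters' processing notes, the authors preprocessed scans with GCOS, normalised with PLIER-MM (Expression Console 1.1) and compared groups with SAM, which was not repeated. The deposited values are linear intensity per probe set. Trimmed by 2% at each end, they averaged 500 in the 3 arrays of wild type TCDD and 150 in the other 9, so every array was rescaled to 150 and those 3 were divided by 3.333. Control probe sets (64) were removed. The platform annotation in GEO gave 1 symbol to 34945 probe sets, several to 932 and none to 9160.

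The log2 of the rescaled signal plus 16 was fitted with limma 3.58.1 in R 4.3.3 as 4 group means over all 12 arrays (eBayes with trend, two-sided, Benjamini-Hochberg over 18193 genes), after the step was tested on simulated data. Summaries and figures used Python 3.11.15. Given array by array were genes with an unadjusted p under 0.05 in any of 5 comparisons and the 6 mesenchymal and 4 endothelial genes with the highest mean signal. Lrat, Lum, Stab1, Col3a1 and the related genes given array by array were picked after their values were seen. The genes, lists, rule and tests were chosen with earlier results of these data known. Alternatives covered the offset, normalization, a filter on dim genes, the fit, array weights, probe set handling, a replicate block and leaving out arrays.

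Deviations from group means of same-numbered arrays correlated at 0.235, 0.265 and 0.188 in human AHR cells and at 0.251, 0.507 and 0.0475 in wild type cells, over genes. Differently numbered arrays correlated at -0.189 to -0.0402 in human AHR cells and at -0.459 to 0.282 in wild type cells. Wild type vehicle replicate 1 correlated more with TCDD replicate 3 (0.282) than with TCDD replicate 1 (0.251). Deviations from a mean of 3 arrays sum to 0, so a positive value for 1 pair goes with a negative one for another. Whether the numbers pair arrays was not tested, and the main fit did not pair them. According to the design text, every array had a mouse of its own. Start site windows were taken from RefSeq (GRCm38.p6).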

Additional observations from a re-analysis of the deposited data

How the results depend on the processing

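Over 24 alternatives (23 for the difference of the TCDD effects), limma called 0 of the 34 genes in each comparison, and the smallest adjusted p was 0.213, that of Reln between genotypes under TCDD with array weights. The fit with a replicate block, which pairs same-numbered arrays, also called 0 genes, with smallest adjusted p-values of 0.654 for TCDD in wild type and 0.746 in human AHR cells. All 10 array-by-array changes with an unadjusted p under 0.05 kept their sign in every alternative. Sizes moved more: Reln ranged from 0.33 to 0.95 in wild type TCDD and 0.39 to 1.07 in human AHR TCDD, Acta2 from -1.97 to -0.38 in human AHR TCDD, and Eng from -1.14 to -0.48 in wild type TCDD. For Acta2 and Eng the offsets of 1 and 50 gave most of that range. The difference of the Reln effects was 0.22, but -0.18 when its probe sets were averaged. A filter on the dimmest 40% of genes kept 14 of the 34, so the other 20 have no value there. Weak signals limit what these arrays can show: the median 95% interval reached 0.59 to either side for a TCDD change and 0.84 for the difference of the effects.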
